A study of Mus musculus with 5 samples.

Results

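The miR-21a hairpin gives a pair of mature miRNAs, mmu-miR-21a-5p and mmu-miR-21a-3p, and their signals were followed in mouse kidney after ischemia reperfusion injury (IRI). They are 2 of the 1247 mouse miRNAs on the array and were taken from it by name. They were chosen by their measured values, the signals of their own probes over time, unscaled, with 1 feature size, and against the median miRNA, so these values are given as a description, with no test.

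Kidneys came from healthy male C57B/6 mice of 20 to 25 g that had bilateral IRI with 30 min of warm ischemia, with 8 mice for each time of 6, 12, 24, or 48 h of reperfusion. The sham group was operated on too, but its renal vessels were not clamped. All mice were perfused with saline before the kidney was removed, RNA was extracted from 20 mg of kidney tissue, and 0.1 µg was labelled with Cy3 for 1-colour Agilent mouse miRNA arrays. The arrays were 1 for sham and 1 for each of the 4 time points, and whether each held the RNA of 1 mouse or a pool was not given in the sources used here. No difference between these arrays can be set against a spread between animals, so errors below are the scanner error of each array, and no p-value is given. The first slide held sham and 6 h, and the other held 12, 24, and 48 h, so slide and injury cannot be told apart where sham is set against the last 3 times.

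A miRNA hairpin is cut into a short duplex, and 1 of its strands is usually kept by an Argonaute protein, where bases 2 to 8 of the miRNA, the seed, guide it to messenger RNAs that are then repressed. For miR-21 the strand usually kept is the 5p arm, while the 3p arm, the partner strand, is mostly degraded. miR-21-5p is known for repressing Pdcd4 and Spry1, and in the kidney it has been studied in tubular survival after ischemia and in fibrosis.

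The mature sequences are shown because the seed differs between the arms, and miR-21c, a relative on the array, has that of the 5p arm. They are RefSeq sequences on GRCm38.p6, written 5′ to 3′ with the seed in capitals. miR-21b and miR-21c are the other miRNAs of that name on the array.
miR-21a-5p: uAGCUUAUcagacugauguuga
miR-21a-3p: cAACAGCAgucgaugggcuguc
miR-21b: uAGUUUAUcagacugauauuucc
miR-21c: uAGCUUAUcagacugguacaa
miR-21a-5p lies at chr11:86584120-86584141 and miR-21a-3p at chr11:86584082-86584103, both on the minus strand. Their hairpin, Mir21a, spans 92 bases at chr11:86584067-86584158, with the 5p arm at its bases 18 to 39 and the 3p arm at bases 56 to 77. The hairpin lies within the span of Vmp1, a protein coding gene for a membrane protein of autophagy, at chr11:86583858-86683836. The annotation used here gives gene spans only, so exon or intron is not stated.

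The probes are shown because the results on the 3p arm rest on only some of them. Each is written 5′ to 3′, pairs with the 3′ end of its miRNA, and has in capitals the bases that it has beyond the shortest probe of that arm.
miR-21a-5p 19-base probe: tcaacatcagtctgataag
miR-21a-5p 20-base probe: tcaacatcagtctgataagC
miR-21a-3p 12-base probe: gacagcccatcg
miR-21a-3p 13-base probe: gacagcccatcgA
miR-21a-3p 14-base probe: gacagcccatcgAC
miR-21a-3p 15-base probe: gacagcccatcgACT
The 5p probes pair with bases 3 or 4 to 22 of miR-21a-5p, and the 3p probes with bases 8, 9, 10, or 11 to 22 of miR-21a-3p. None of them had a perfect match in another mouse mature miRNA of RefSeq. Since probes of different sequence bind differently, the level of 1 arm was not set against that of the other, and only their changes were compared.

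The 5p arm was bright on every array and brighter after IRI than in sham. Its signal, the sum of both own probes in arbitrary intensity units, was 831 ± 73.1 on the sham array, 1577 ± 138 at 6 h, 3976 ± 345 after 12 h, 7885 ± 680 after 24 h, and 4898 ± 429 after 48 h (scanner error, 1 array each). Both probes were above 3 times their error on every array. All 4 arrays after IRI were above sham, and 24 h was the highest.

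Over sham, the log2 ratio of miR-21a-5p was 0.92 at 6 h, 2.26 after 12 h, 3.25 after 24 h, and 2.56 after 48 h, and the scanner error was 0.18 at each time. In folds these were 1.90, 4.79, 9.49, and 5.90. In the order of the unscaled levels, the nearest neighbours were 12 h and 48 h, whose log2 difference of 0.30 had an error of 0.18. The next nearest were 48 h and 24 h, which were 0.69 apart with the same error.

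The scanning software multiplies signals by an effective feature size, which was 0.774 at 12 h and 0.776 at 24 h and was left at its default of 0.6 on the other arrays. This alone makes signals 1.29-fold higher at 12 h and at 24 h. With 1 feature size for all arrays, miR-21a-5p read 3081 at 12 h and 6097 at 24 h, and the folds over sham at these times were 3.71 and 7.34. The peak at 24 h was then 0.32 above 48 h on the log2 scale, with an error of 0.18.

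Many other miRNAs had a higher signal on the same arrays. The median log2 ratio over sham of the 182 miRNAs detected on all 5 arrays was 0.16 at 6 h, 0.55 after 12 h, 1.03 after 24 h, and −0.23 after 48 h. Relative to this median, miR-21a-5p was 0.77 higher at 6 h, 1.71 after 12 h, 2.21 after 24 h, and 2.79 after 48 h. In folds relative to the median miRNA these were 1.70, 3.27, 4.64, and 6.91. The time of the highest value thus differed between the scales, being 24 h for the unscaled signal and 48 h against the median miRNA. After quantile normalization it was 24 h against the median too, at 2.75 against 2.55 at 48 h. The log2 ratio of miR-21a-5p over sham was then 2.52 at both times. The share of miR-21a-5p in the summed signal of all detected miRNAs also was highest at 48 h, at 1.27% in sham, 2.04% at 6 h, 3.19% after 12 h, 5.75% after 24 h, and 6.51% after 48 h. When the 4 spike-in controls were used as the scale, the log2 ratios were 0.86, 1.21, 2.16, and 1.52, again with the highest at 24 h. These controls, RNAs of known amount added to each sample, were themselves on average 2.08-fold, 2.13-fold, and 2.06-fold brighter than in sham on the 12, 24, and 48 h arrays, which share a slide, and 1.05-fold at 6 h. Single controls differed on the log2 scale, from 0.70 to 1.68 at 12 h, 0.61 to 1.58 at 24 h, and 0.63 to 1.28 at 48 h. This spread is not part of the scanner error.

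**Figure D1:**
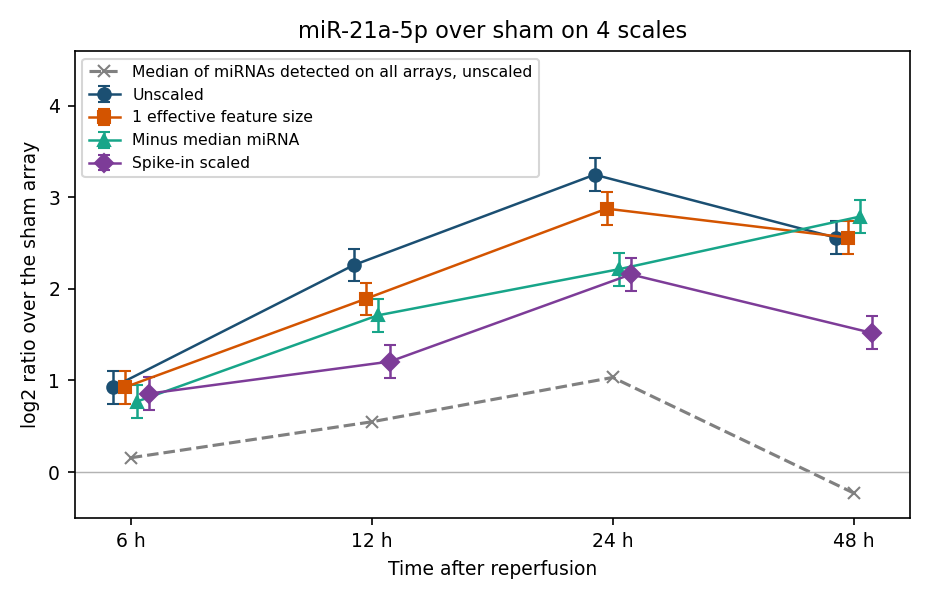
log2 ratio of the miR-21a-5p signal over the sham array (y axis) against hours after reperfusion (x axis; 6, 12, 24, and 48) on 4 scales, with bars for the scanner error of the ratio and 1 array per time, and, dashed, the median miRNA detected on all arrays. The bars of the spike-in line leave out the spread between the controls. All 4 lines are above 0 at every time, and at 48 h the line relative to the median miRNA is at its highest, 2.79, while the other lines are below their value at 24 h.

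Steps within a slide do not carry the difference between slides. From sham to 6 h, miR-21a-5p was 0.92 higher on the log2 scale, and the median miRNA was 0.16 higher. From 12 h to 24 h, in 1 scan of the other slide, it was 0.99 higher (0.98 with 1 feature size), or 0.53 higher relative to the median miRNA. From 24 h to 48 h, on that slide but in another scan, its unscaled signal was lower by 0.69, the median miRNA was −1.24 over the same step, and relative to the median miR-21a-5p was 0.56 higher.

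The probes of the 5p arm gave the same course. The total signals of the 20-base probe were 722 in sham, 1367 at 6 h, 3399 after 12 h, 6687 after 24 h, and 4235 after 48 h. Those of the 19-base probe were 108, 210, 577, 1198, and 663. Over sham at 24 h the log2 ratio was 3.21 for the longer probe and 3.47 for the shorter one. Each probe had 20 spots on an array, all well above background, and the SD over these spots was between 2.16% and 6.87% of their mean, except for the 20-base probe at 12 h, at 13.4%. There, 1 spot was marked as an outlier by the software and the spots ran from 4023 to 9912. Spots on 1 array are technical repeats, and the scanner error of about 10% that is used for the ratios is a preset of the software rather than a measure of this spread.

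**Figure D2:**
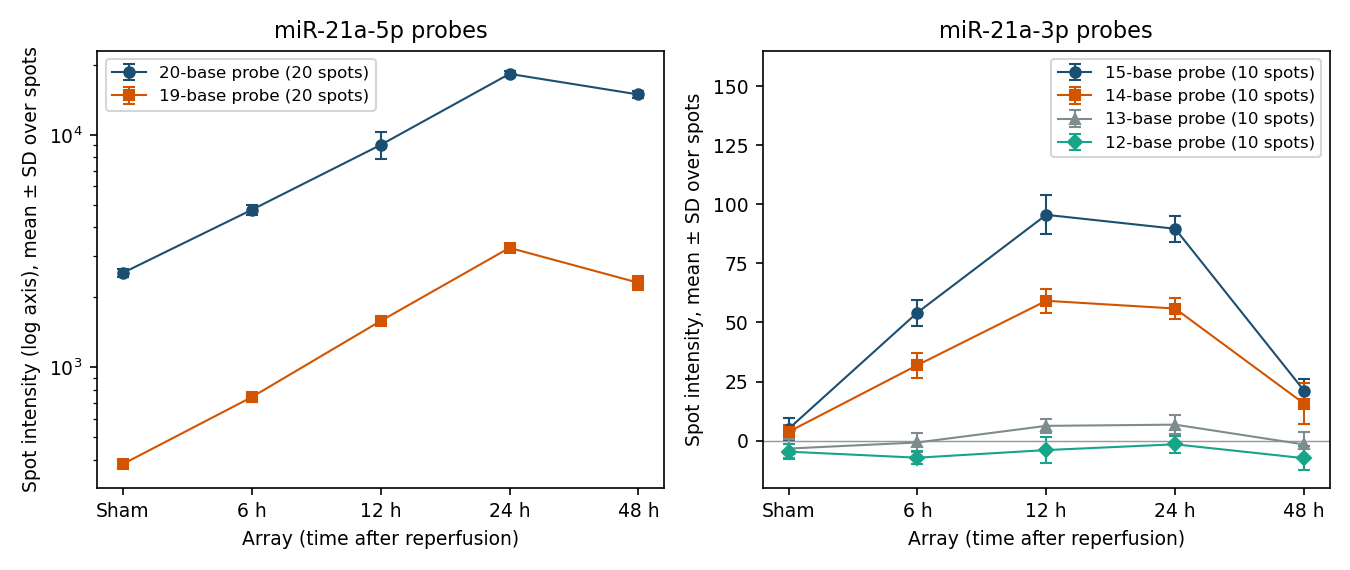
Intensity of single spots (y axis, mean with bars of 1 SD over the spots of a probe, logarithmic for the 5p arm at left and linear for the 3p arm at right) on the sham array and the 4 arrays after IRI (x axis). Both 5p probes are highest at 24 h, while the 14- and 15-base 3p probes are highest at 12 h and near 0 in sham, and the 12- and 13-base probes stay near 0 on every array.

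The 3p arm was dim, was not detected in sham, and was higher at 6, 12, and 24 h after IRI. At 48 h it was close to its detection limit. Its signal from detected own probes was 12.2 ± 1.37 at 6 h, 28.2 ± 2.50 after 12 h, 26.6 ± 2.75 after 24 h, and 3.02 ± 0.87 after 48 h. None of its 4 probes was above 3 times its error on the sham array. Summed over all 4 probes, the sham signal was 0.15 ± 1.21. In the order of the levels, 48 h was the lowest of the times after IRI, then 6 h, and 24 h and 12 h did not differ beyond their errors. The place of 6 h below 24 h, which were on different slides, did not hold on every scale, since the log2 ratio of 24 h over 6 h was 1.13 unscaled, 0.11 with the spike-in controls, −0.095 after quantile normalization, and −0.098 in the processed table.

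Against the lowest signal of any miRNA detected on the sham array, 1.99, miR-21a-3p was 6.10-fold higher at 6 h and 14.2-fold after 12 h. It was 13.3-fold higher after 24 h and 1.51-fold after 48 h. These folds are called bounds below, but they are not strict limits, since miR-21a-3p in sham could have been above 1.99 and undetected. An undetected probe can lie anywhere up to 3 times its error, which in sham was 0.61 for the 14-base and for the 15-base probe. With 1 feature size the bounds at 12 h and 24 h were 11.0-fold and 10.3-fold. At 48 h the bound rested on 1 probe close to the detection limit, and with the spike-in controls as the scale it was under 1, so that no fold holds there on that scale.

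The longer probes carried the 3p signal. The 15-base probe gave 0.63 in sham, 7.66 at 6 h, 17.4 after 12 h, 16.4 after 24 h, and 3.02 after 48 h. The 14-base probe gave 0.52, 4.52, 10.8, 10.2, and 2.21, and the shorter probes were not detected on any array. At 48 h the error of the 15-base probe was 28.8% of its signal, just inside the limit, and that of the 14-base probe was 38.5%, just outside. By its spots, the 15-base probe stood at 21.2 ± 4.94 at 48 h and at 4.96 ± 4.68 in sham (SD over 10 spots), and the spot ranges of 11.2 to 29.9 and −4.21 to 13.6 overlapped. If the 14- and 15-base probes are summed on every array, whatever their detection, the signals were 1.15 ± 0.86 in sham and 5.23 ± 1.22 at 48 h.

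The step from 12 h to 24 h, within 1 slide and scan, set the arms apart. miR-21a-3p was −0.085 on the log2 scale with an error of 0.20, a difference within the scanner error, while miR-21a-5p was 0.99 higher with an error of 0.18. From 24 h to 48 h the 3p arm was lower by 3.14 with an error of 0.44, against 0.69 for the 5p arm. With the 14- and 15-base probes on both arrays it was lower by 2.35, with an error of 0.37.

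Since a factor that multiplies a whole array cancels when the change of 1 arm is taken from that of the other, the arms were compared in this way over 6 h, the first array on which both were detected. The change of miR-21a-3p minus that of miR-21a-5p was −0.12 ± 0.27 at 12 h, −1.19 ± 0.28 at 24 h, and −3.65 ± 0.48 at 48 h (log2, scanner error). At 12 h the difference between the arms was within the error, and at 24 h and 48 h the 3p arm was behind. After quantile normalization the value at 12 h was −0.79, with normexp background correction −0.88, and in the processed table −0.73, each beyond that error. The normexp value averages the spots of all 4 3p probes after an offset of 50 is added. The 14- and 15-base probes had spot means from 31.9 to 95.6 at 6 h and 12 h, so the offset shrinks the 3p change. The mean of all spots, with no offset, gave 0.058. With the 14- and 15-base probes summed on every array, the value at 48 h was −2.85 ± 0.41, so part of the −3.65 comes from the 14-base probe, which was below the limit at 48 h. Between sham and 6 h only a value against the lowest detected sham signal can be given, which is not a strict limit. By it, the difference of miR-21a-3p on the log2 scale was 1.69 above that of miR-21a-5p.

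For comparison, both arms were detected at all 4 times after IRI in 11 other hairpins, of 422 hairpins with both arms on the array. Their change of 3p minus 5p over 6 h had a median of 0.01 at 12 h, −0.16 at 24 h, and −0.21 at 48 h. At 12 h they ran from −1.01 to 1.19, and miR-21a lay inside this range. At 24 h they ran from −1.02 to 1.28, with miR-21a below the lowest, miR-29c, by less than its scanner error. The hairpins differ in which arm gave the dim signal. In miR-29c it was the 5p arm, at 8.05 at 6 h beside 417 for the 3p arm. From 6 h to 24 h its dim 5p arm was higher by 1.70 and its 3p arm by 0.68, whereas in miR-21a the dim arm was the one behind. At 48 h the range was −2.90 to 0.69, and the lowest of them was miR-125a, whose 3p arm had also lost probes, with 2 of 4 detected. Of these 12 hairpins, miR-21a and miR-125a also had the lowest 3p signals at 48 h, 3.02 and 6.50, and the part of the dim signal in their difference was not tested. Of the hairpins with both arms also detected in sham, the difference at 24 h over sham was highest for miR-125a at 1.59, miR-1839 at 1.14, and miR-652 at 0.55, and lowest for miR-29c at −1.09, miR-199a at −0.36, and miR-140 at −0.31.

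**Figure D3:**
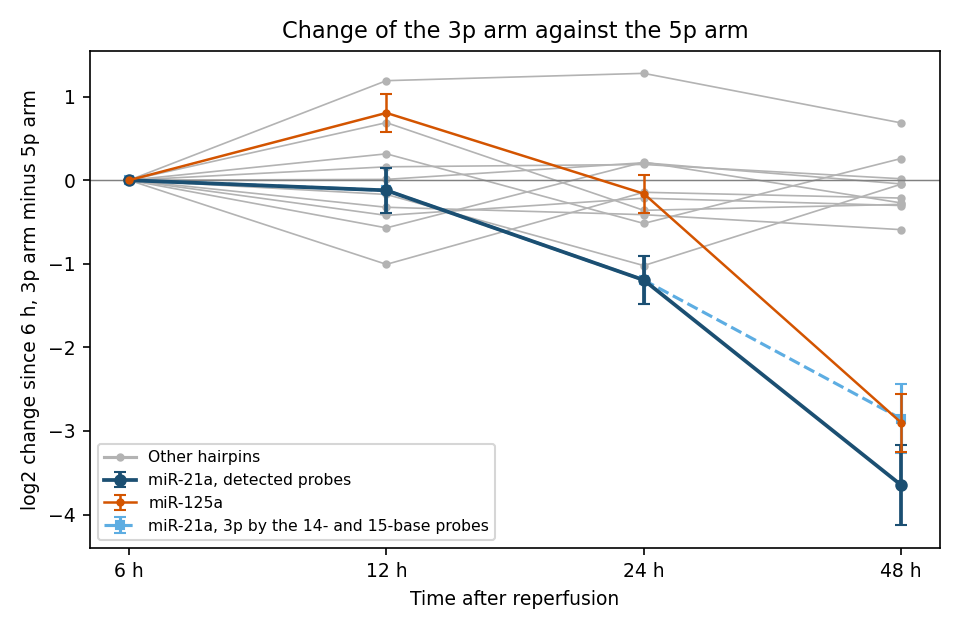
log2 change since 6 h of the 3p arm minus that of the 5p arm (y axis) against hours after reperfusion (x axis; 6, 12, 24, and 48) for the 12 hairpins with both arms detected at every time after IRI, with bars for the scanner error where drawn. miR-21a is at −1.19 at 24 h and −3.65 at 48 h (−2.85 with the 14- and 15-base probes on every array, dashed), and apart from miR-125a the other hairpins lie within 1 of 0 at 48 h.

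The scanning software also writes a total signal per miRNA, and for the 3p arm this total was not that of its own probes. It read 0.1, the blank value, in sham, then 28.8 at 6 h, 53.2 after 12 h, 51.9 after 24 h, and 88.8 after 48 h. Its excess over the detected own probes was equal to within 0.0001 units, on each array after IRI, to the software's total of another miRNA, miR-218-5p at 6, 12, and 48 h and miR-2183 at 24 h. At 48 h that total, 85.7, was itself not the own signal of miR-218-5p, which was 9.29. At 48 h this excess was 96.6% of the total. By that column miR-21a-3p would be highest at 48 h, where by its own probes it was lowest of the 4 times. For the 5p arm the 2 readings were the same to within 0.007 units.

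Among the 182 miRNAs detected on all arrays, miR-21a-5p had the 39th highest ratio over sham at 6 h, the 26th after 12 h, the second after 24 h, and the first after 48 h. At 24 h only miR-5115 was above it and miR-2861, at 3.09, was next below. At 48 h miR-5115 was next below, at 2.06. A log2 ratio of at least 1 was reached by 19.2% of the 182 at 6 h, 30.8% after 12 h, 51.1% after 24 h, and 7.69% after 48 h. With 1 feature size the shares at 12 h and 24 h were 24.2% and 31.3%. Relative to the median miRNA the shares were 17.6%, 20.3%, 12.6%, and 11.0%, and miR-21a-5p was past 1 at 12, 24, and 48 h on both scales. A rank among miRNAs does not depend on a factor that multiplies a whole array.

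**Figure D4:**
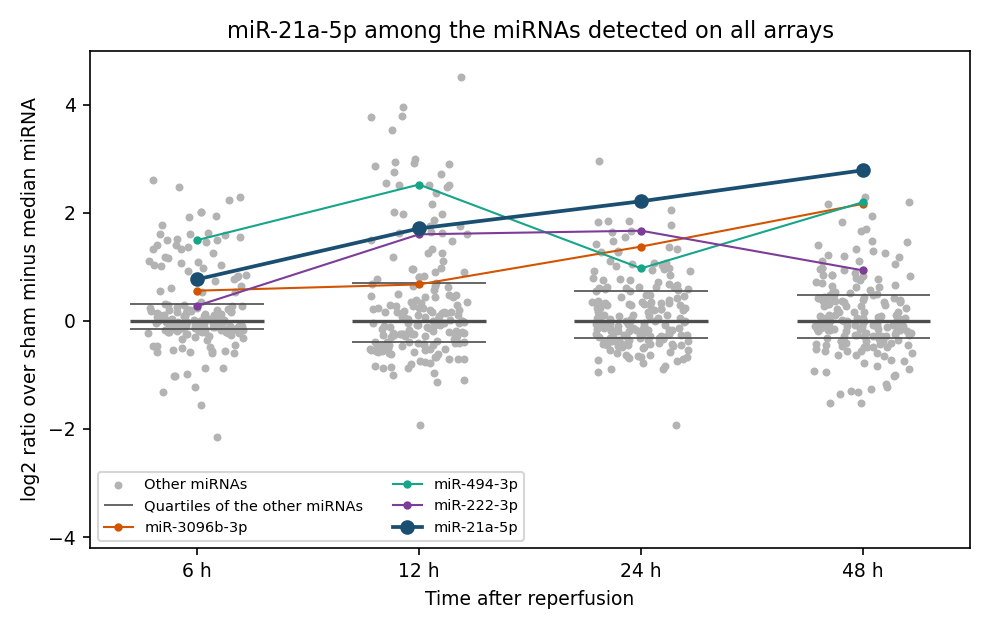
log2 ratio over the sham array minus the median miRNA (y axis) against hours after reperfusion (x axis; 6, 12, 24, and 48) for the 182 miRNAs detected on all arrays, with horizontal lines at the quartiles of the others. The line of miR-21a-5p goes up from 0.77 to 2.79 and ends above all other miRNAs at 48 h, and miR-3096b-3p, miR-494-3p, and miR-222-3p, the closest in course, are drawn beside it.

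miR-21a-3p was 1 of 4 miRNAs that were not detected in sham and were detected at every time after IRI, which is 0.321% of the 1247. The others were miR-132-3p, a miRNA of neurons and immune cells that follows the transcription factor CREB, miR-296-5p, and miR-714. miR-132-3p read 10.6 at 6 h, 14.8 after 12 h, 20.2 after 24 h, and 7.45 after 48 h, and miR-296-5p read 5.55, 27.6, 34.4, and 12.1. miR-714 read 3.82, 18.5, 31.7, and 4.57. In all 3 the highest value was at 24 h, whereas miR-21a-3p had its highest at 12 h by a margin within its error. Detected after IRI and not in sham were 3.13% of all miRNAs at 6 h, 5.69% after 12 h, 7.14% after 24 h, and 0.722% after 48 h.

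The miRNAs whose course was most like that of miR-21a-5p were found by the distance over the 4 log2 ratios relative to the median miRNA, among 181 miRNAs, where the median distance was 4.13. The closest were miR-3096b-3p at 1.49, miR-494-3p at 1.75, miR-222-3p at 2.0, miR-188-5p at 2.05, and miR-5115 at 2.17. miR-3096b-3p read 20.3 in sham, 33.4 at 6 h, 47.5 after 12 h, 108 after 24 h, and 78.0 after 48 h, and like miR-21a-5p it was highest relative to the median at 48 h, by 2.17. miR-222-3p, which is known for repressing the cell cycle inhibitor p27, read 3.99, 5.39, 17.7, 26.0, and 6.50, with errors of its log2 ratios between 0.52 and 0.62. For miR-21a-3p, over the 3 ratios to 6 h and among 185 miRNAs detected at all times after IRI, the closest turned on the probes used at 48 h. With detected probes they were miR-1906 at 0.24, miR-125a-3p at 0.51, and miR-6378 at 0.84, against a median of 1.99. With the 14- and 15-base probes on every array they were miR-671-5p at 0.31, miR-211-3p at 0.51, and miR-3470a at 0.52, against a median of 1.47, and miR-1906 was then at 0.85.

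The relatives of miR-21a-5p gave no signal. miR-21c, the only other miRNA of the RefSeq table with its seed, differs from it at 5 of 21 bases compared, the first at base 16, and miR-21b differs at 4 of 22, the first at base 4 and so within the seed. Neither was detected on any array, and the mean over the spots of each of their probes lay between −9.04 and 3.30. The longest run of miR-21a-5p that a probe of either can pair with is 13 bases. On the 24 h array, where miR-21a-5p was brightest, these probes thus stayed at background. The seed of miR-21a-3p was shared by no other miRNA of the table.

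Within 2 Mb of Mir21a, miR-301a-3p and miR-378b were detected on all arrays. miR-301a-3p, 529 kb away, read 10.0 in sham, 10.1 at 6 h, 10.8 after 12 h, 15.2 after 24 h, and 6.14 after 48 h. miR-378b, 1769 kb away, read 112, 120, 126, 145, and 42.7. In both, the 48 h array was the lowest, below sham, while miR-21a-5p stayed above sham there. Of the 182 miRNAs detected on all arrays, only 71 were above sham at 48 h, and the median log2 ratio of the 182 was −0.23. miR-142-3p, 1173 kb away, was detected on 3 arrays, at 4.74 in sham, 6.83 at 12 h, and 5.17 at 48 h. miR-142-5p, miR-301a-5p, and miR-5110, also within this distance, were not detected on any array.

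Of 24 miRNAs known in kidney injury, hypoxia, and fibrosis, 14 were detected on all arrays, 5 on some, and 5 on none. miR-494-3p, which has been studied in ischemic kidney, was the only one of the 14 with a ratio over sham at or above that of miR-21a-5p at 6 h and at 12 h, and at 24 h and 48 h there was none. It read 101 in sham, 317 at 6 h, 850 after 12 h, 406 after 24 h, and 396 after 48 h. Its highest value, at 12 h, came before that of miR-21a-5p. miR-18a-5p, of the miR-17 cluster, read 6.34, 7.28, 8.08, 26.6, and 19.4, and was 1.03 above the median miRNA at 24 h and 1.84 at 48 h. miR-210-3p, the miRNA best known for its rise in hypoxia, read 28.0 in sham, 25.0 at 6 h, 10.8 after 12 h, 15.1 after 24 h, and 8.37 after 48 h. It was below sham at 12, 24, and 48 h, and at 6 h its log2 ratio of −0.16 was within its error of 0.22. Of the 14, a log2 ratio of at least 1 was reached by 1 at 6 h, 2 after 12 h, 7 after 24 h, and 2 after 48 h, beside 19.2%, 30.8%, 51.1%, and 7.69% of the 182. Relative to the median miRNA the median of the 14 was 0.04, −0.24, −0.08, and 0.60, where that of all 182 is 0 by construction.

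Kidney tissue holds several cell types, and in whole tissue a change in the number of cells of a type and a change in RNA per cell cannot be told apart. All 6 miRNAs listed for the kidney tubule were detected on every array, and their summed signal was 2804 in sham, 3249 at 6 h, 3772 after 12 h, 4526 after 24 h, and 2097 after 48 h. It was highest at 24 h like miR-21a-5p but below sham at 48 h. The unscaled median miRNA was likewise highest at 24 h and below sham at 48 h. Relative to that median, the median of the 6 tubule miRNAs was −0.04 at 6 h, 0.03 after 12 h, −0.24 after 24 h, and −0.16 after 48 h. At 24 h and 48 h only 1 of the 6, miR-204-5p, was above the median miRNA, by 1.65 and 0.42. Its signal was 7.26 in sham and 46.7 at 24 h. Of 6 leukocyte miRNAs, 2 were detected on all arrays, miR-142-5p and miR-150-5p on none, and their summed signal was 47.8, 76.7, 111, 70.7, and 61.2. miR-223-3p, of neutrophils and other myeloid cells, read 24.8, 55.7, 82.7, 39.5, and 41.7 and was highest at 12 h. It was above sham at every time unscaled, but with the spike-in controls as the scale its log2 ratio was −0.42 at 24 h and −0.29 at 48 h, and relative to the median miRNA it was −0.36 at 24 h. The red blood cell miRNA miR-451a read 159, 500, 234, 538, and 105, miR-144-3p was not detected, and the array lists no miR-486-5p by that name. Of the endothelial miRNAs, miR-126-3p ran from 586 at 48 h to 1284 at 24 h, and miR-126-5p was detected in sham alone, at 3.82. The summed signal of 3 stromal miRNAs ran from 149 in sham to 315 at 24 h. Relative to the median miRNA at 24 h, miR-126-3p was −0.40 and the median of the 3 stromal miRNAs was 0.007. At 48 h these were −0.27 and 0.63, with miR-143-3p, a stromal miRNA, at −0.21. The 2 leukocyte miRNAs detected on all arrays, miR-223-3p and miR-155-5p, were 0.98 and 0.95 above the median miRNA at 48 h. Relative to the median miRNA, no marker detected on all arrays was above miR-21a-5p at 12, 24, or 48 h, and at 6 h miR-223-3p and miR-451a were, at 1.01 and 1.49 against 0.77. The part of changes in cell makeup in the signal of miR-21a was not tested.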

How the data were processed

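The deposited scanner files hold background-subtracted spot intensity values and total probe signals that the authors obtained with Agilent Feature Extraction 10.7.1.1, without normalization between arrays. The deposited table holds processed log2 values per miRNA, whose normalization was not given in the sources used here, and it was used as an alternative only. Here, each own probe was counted as detected above 3 times its error, and detected probes were summed once per miRNA. The miRNAs detected in this way were those that the software calls detected, but its total signal was not always this sum. Log2 ratios over sham were computed unscaled, with 1 effective feature size, and minus the median of the 182 miRNAs detected on all 5 arrays. Ratio errors combine the scanner errors of the 2 signals. With 1 array per group no test was made, and precision is limited by that number. The members, lists, and comparisons were chosen with earlier results of these data known. miRNAs were named by rules on seed, name, position, distance, and these lists, and 6 h became the base for the 3p arm after its absence in sham was seen. Between 197 and 298 of the 1247 miRNAs were detected per array, no spot was saturated, and the arrays came from 2 slides in 3 scans. Sequences and positions are RefSeq's (GRCm38.p6). The probe positions in the files were not used, since for 967 of 968 probes on the minus strand they were mirrored within the hairpin, against 0 of 1294 on the plus strand. Alternatives used quantile normalization and normexp (limma 3.58.1, R 4.3.3, offset 50), and the steps were tested on simulated data. Python 3.11.15 with numpy 2.4.6 and pandas 2.3.3 was used.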

Additional observations from a re-analysis of the deposited data

How the results depend on the processing

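With 1 array per group, the spread between mice was not measured and a value was set against the scanner error alone, and the dim 3p arm in sham and at 48 h, near its detection limit, limits every 3p ratio that uses those arrays. No paired analysis was possible because there was only 1 array for each group, and for the same reason there was no replicate to leave out. Under all alternatives miR-21a-5p stayed above sham at every time, and the 3p change was below that of the 5p arm at 24 h and 48 h, where the software's total signal gave −0.012 at 48 h. At 12 h, where the difference was within its error, it was above 0 with the mean of all spots (0.058), the median spot (0.045), and all own probes (0.028), and beyond the error below 0 with quantile normalization, normexp, the processed table, and the software's total signal. The offset used with normexp shrinks the change of the dim 3p arm. Scaling by the 75th percentile of all miRNAs changed nothing, since that percentile was the blank value on each array.

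The values that moved by more than the scanner error are grouped by setting, on the log2 scale and at 12, 24, and 48 h unless said. With 1 effective feature size, miR-21a-5p over sham was 1.89 at 12 h and 2.88 at 24 h, the 3p bound over sham 3.45 and 3.37, and the 3p arm over 6 h 0.85 and 0.76. With the spike-in controls, with or without 1 feature size, miR-21a-5p was 1.21, 2.16, and 1.52, the 3p bound 2.77, 2.65, and −0.44, and the 3p arm over 6 h 0.23, 0.11, and −2.98. With the 75th percentile of the miRNAs detected on all arrays, miR-21a-5p was 0.63 at 6 h, 1.63 at 12 h, and 2.09 at 24 h (and 2.69 at 48 h, its highest on this scale), the 3p bound 2.31, 3.19, and 2.58 at these times, and the 3p arm over 6 h 0.88 at 12 h and 0.26 at 24 h.

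With quantile normalization of the own-probe signals, miR-21a-5p over sham was 0.62 at 6 h, 1.69 at 12 h, and 2.52 at 24 h, and relative to the median miRNA 2.22, 2.75, and 2.55. The 3p arm over 6 h was 0.28, −0.095, and −0.51, and its change minus that of the 5p arm −0.79, −2.0, and −2.41. In the processed table miR-21a-5p was 0.56 at 6 h, then 1.56, 2.51, and 2.18, and relative to the median 2.14, 2.74, and 2.20. The 3p arm over 6 h was 0.27, −0.10, and −0.47 there, and 3p minus 5p −0.73, −2.05, and −2.09. With normexp, miR-21a-5p was 1.91 at 12 h and 2.89 at 24 h, and relative to the median 2.50 at 24 h and 2.48 at 48 h. The 3p arm was 0.20, 0.29, and −0.10, and 3p minus 5p −0.88, −1.79, and −1.76. On these 3 scales the highest value relative to the median miRNA was at 24 h and not 48 h, with normexp by less than the scanner error. Quantile normalization, before which undetected miRNAs were set to the blank value of 0.1, gives the same value to equal ranks on 2 arrays. By it miR-21a-5p over sham was 2.52 at both 24 h and 48 h, where its rank by signal was thus the same. Only the median miRNA differed between these times. Why the highest value was at 24 h on these 3 scales was not tested.

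The software's total signal, whose excess over the own probes equalled another miRNA's total, gave the 3p arm 0.88, 0.85, and 1.62 over 6 h. It gave 3p minus 5p −0.45 at 12 h and −0.012 at 48 h. The mean over all spots gave miR-21a-5p 1.86 at 12 h and 2.88 at 24 h, the 3p arm −1.49 at 48 h, and 3p minus 5p −3.14. The median spot gave 1.89, 2.88, −1.45, and −3.08. The 19-base probe alone gave miR-21a-5p 3.47 at 24 h and 2.44 relative to the median. At 48 h, the 15-base probe alone gave the 3p arm −1.34 and 3p minus 5p −2.98, and all own probes, detected or not, gave the 3p arm −1.54. The sum of the 14- and 15-base probes, an alternative chosen after seeing the data, gave at 48 h a 3p bound of 1.39, or 1.62 relative to the median, a 3p arm of −1.22, and 3p minus 5p of −2.85.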
